A study of Mus musculus with 20 samples.

Results

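The genes described here are 6 mouse genes for secreted resistin-like and chitinase-like proteins, Retnla, Retnlg, Chil1, Chil3, Chil4 and Chia1. They were chosen by name and matched from symbol to Ensembl identifier, and they are 6 of the 49315 gene identifiers in the deposited count tables. All 6 were found, and all 6 passed the filter on low counts.

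RNA sequencing was done on eosinophils sorted by flow cytometry from mouse lung, and each library came from a pool of 3 to 5 mice. The day 7 group without blockade (n = 5) consisted of pools from Balb/c lungs transplanted into C57BL/6 mice, taken 7 days after transplantation and labelled as having had no costimulatory blockade (CSB), a treatment that withholds accessory activation signals from T cells. The resting group (n = 5) consisted of pools from lungs of untreated C57BL/6 mice. Graft eosinophils are of recipient origin per the labels, while the lung tissue around them is of the donor strain, so for genes of lung tissue the strain and the transplantation cannot be told apart. Groups treated with blockade at days 7 and 30 were not analysed here. The sources used here do not give the sorting gate, and each library is a mean over several animals.

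Resistin-like molecules are small, cysteine-rich secreted proteins. Retnla (also called RELM-alpha or FIZZ1) is a classic target of interleukin-4 and interleukin-13 acting through the transcription factor STAT6 in mouse macrophages and airway epithelium, while Retnlg (RELM-gamma) is known from mouse bone marrow and granulocytes. Chia1 is acidic mammalian chitinase, an enzyme that cleaves chitin, whereas Chil1 (BRP-39, the mouse counterpart of YKL-40), Chil3 (Ym1) and Chil4 (Ym2) keep the chitinase fold without that activity. Chil3 is a common marker of alternatively activated mouse macrophages and is also made by mouse neutrophil precursors.

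Retnla and Retnlg are neighbours on chromosome 16, and Chia1, Chil3 and Chil4 lie together on chromosome 3. The upstream sequences of both related pairs are shown because only 1 gene of each passed the test between the groups. They are RefSeq sequences on build GRCm38.p6, read along the strand of the gene from 5′ to 3′, and each stops before the first annotated transcript base. Capitals mark matches to 4 motifs searched on both strands, TTC and GAA separated by any 4 bases for STAT6, TTC and GAA separated by any 3 bases for other STAT proteins, TTGCNNAA for C/EBP and GAGGAA for PU.1. The windows are chr16:48842359-48842550 (plus strand) for Retnla and chr16:48872358-48872607 (plus strand) for Retnlg.
Retnla: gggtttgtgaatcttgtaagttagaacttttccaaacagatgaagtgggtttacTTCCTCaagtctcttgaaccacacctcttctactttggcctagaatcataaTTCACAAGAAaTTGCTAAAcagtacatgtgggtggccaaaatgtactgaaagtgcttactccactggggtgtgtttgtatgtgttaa
Retnlg: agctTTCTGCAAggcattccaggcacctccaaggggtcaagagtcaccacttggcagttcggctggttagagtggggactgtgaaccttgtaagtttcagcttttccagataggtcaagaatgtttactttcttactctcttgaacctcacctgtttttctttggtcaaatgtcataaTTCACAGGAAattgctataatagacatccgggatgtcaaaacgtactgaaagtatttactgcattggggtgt

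The Retnla window holds a STAT6 match that begins at position -145 from the RefSeq start site and a C/EBP match that begins at -134, without overlap, and a PU.1 match on the opposite strand at -196. The Retnlg window holds a STAT6 match at -72 and a C/EBP match on the opposite strand at -246. Of 32851 promoter windows cut to the length of the Retnla window, 4.58% held the STAT6 motif, 7.84% the C/EBP motif and 18.2% the PU.1 motif. At the length of the Retnlg window these shares were 5.85% for STAT6 and 9.56% for C/EBP. The aligned Retnla and Retnlg windows were identical at 135 of 176 positions (76.7%). Both genes therefore carry the letters of a STAT6 motif, although only Retnla passed the test between the groups. A match describes letters and not binding.

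The windows of the chromosome 3 pair are chr3:106167565-106167814 (minus strand) for Chil3 and chr3:106219508-106219729 (minus strand) for Chil4.
Chil3: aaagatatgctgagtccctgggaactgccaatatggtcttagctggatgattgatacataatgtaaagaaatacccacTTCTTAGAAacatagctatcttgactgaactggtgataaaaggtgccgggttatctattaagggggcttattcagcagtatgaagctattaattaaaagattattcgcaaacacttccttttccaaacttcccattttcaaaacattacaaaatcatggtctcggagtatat
Chil4: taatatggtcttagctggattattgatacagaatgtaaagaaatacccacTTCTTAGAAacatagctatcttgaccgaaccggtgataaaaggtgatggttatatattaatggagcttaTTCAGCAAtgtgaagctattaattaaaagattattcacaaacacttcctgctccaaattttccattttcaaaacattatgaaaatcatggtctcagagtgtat

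The Chil3 and Chil4 windows were identical at 201 of 221 aligned positions (91.0%), and both hold the same STAT match, which begins at -172 in Chil3 and at -200 in Chil4. The STAT motif was present in 7.02% of windows of the Chil3 length and in 6.31% of windows of the Chil4 length. The Chil4 window also holds a C/EBP match on the opposite strand at -131, a motif found in 8.84% of windows of that length. None of the 4 motifs was found in the windows of Chil1 and Chia1. The Chia1 window held only 97 bases, a length at which 2.48% to 9.73% of windows held a given motif.

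The libraries held 15695074 to 26683784 counts in the day 7 grafts without blockade and 6666577 to 12883144 counts in resting lung, and the groups come from separate deposited tables, so table, depth and group cannot be told apart. Levels are in CPM (counts scaled to a common library total), adjusted by the trimmed mean of M-values (TMM) method, and differences were tested with edgeR's quasi-likelihood test, with p-values adjusted over 16500 genes. The summed level of 15 eosinophil markers was 2819 to 5483 CPM in day 7 grafts and 2805 to 4891 CPM in resting lung. Ccr3, the eotaxin receptor, was at 171 to 811 CPM in day 7 grafts and 159 to 472 CPM in resting lung. The granule genes that define eosinophils were present but scarce in the grafts: 6 of the 15 markers, Epx, Prg2, Prg3, Ear1, Ear2 and Ear6, were called lower without overlap, and 3, Csf2rb, Il1rl1 and Siglecf, were called higher. Prg2, which encodes major basic protein, was at 34.1 to 166 CPM in day 7 grafts and 229 to 697 CPM in resting lung. Epx, which encodes eosinophil peroxidase, was at 0.55 to 9.62 CPM in day 7 grafts and 22.5 to 171 CPM in resting lung. Markers of other cells were present too. The summed level of 12 mature neutrophil markers was 2504 to 12357 CPM in day 7 grafts and 3766 to 7558 CPM in resting lung. The sum of 11 granule genes of immature neutrophils averaged 421 ± 137 CPM in day 7 grafts and 1561 ± 563 CPM in resting lung (SD, n = 5 each; exact two-sided permutation test, adjusted p = 0.0119 over 9 marker lists), and 9 of the 11 genes were called lower. The sum of 17 alveolar macrophage markers averaged 1809 ± 448 CPM in day 7 grafts and 2762 ± 370 CPM in resting lung (adjusted p = 0.0204, exact permutation test), with 9 called lower and 3 higher; Ear1 and Ear2 stand in this list and in the eosinophil list. Cd9 made up most of the alveolar macrophage sum, at means of 1235 CPM in day 7 grafts and 1702 CPM in resting lung. In no list of markers was a gene at 0 in every library.

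The family split 3 ways at day 7. Retnla was higher in the grafts, Chil4 and Chia1 were lower, and Retnlg, Chil1 and Chil3 did not pass the test. Of 6 members 1 was called higher, against 23.3% of all genes tested, and 2 were called lower, against 23.4%, which makes 3 of 6 in either direction, against 46.7%. The groups did not overlap for 3 of 6 members, against 35.1% of genes tested: 1 with the grafts higher, against 16.4%, and 2 with the grafts lower, against 18.7%. These shares are close to the background, so the family did not stand out by its number of changed genes. In bulk RNA, fewer cells of a type and less RNA per cell cannot be told apart.

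**Figure D1:**
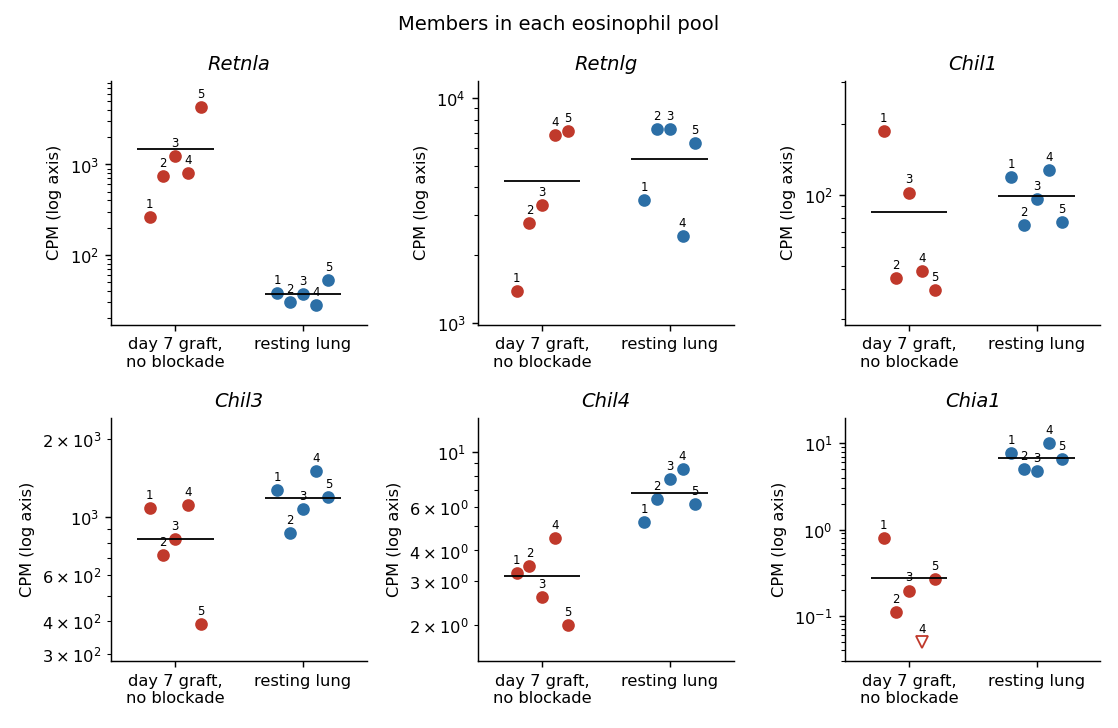
CPM of each member (y axis, log scale) in the 5 day 7 graft pools without blockade and the 5 resting pools, with 1 point per pool and lines at the group means. Retnla at 264 to 4345 CPM lies above all resting pools, Chil4 and Chia1 lie below them, and the other members overlap.

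Retnla (ENSMUSG00000061100, chr16:48842551-48844461, plus strand) was measured at 264, 736, 1235, 806 and 4345 CPM in day 7 replicates 1 to 5, against 38.1, 29.7, 36.8, 28.1 and 52.8 CPM in resting replicates 1 to 5. Every graft pool was above every resting pool, and day 7 replicate 5 stood far above the other 4. The mean was 1477 ± 1640 CPM at day 7 and 37.1 ± 9.79 CPM at rest (SD, n = 5 each), with a log2 fold change of 5.31 ± 0.67 (SE, adjusted p = 2.74e-05, edgeR quasi-likelihood test), which is 39.7-fold. Without day 7 replicate 5 the log2 fold change was 4.36 (20.6-fold, adjusted p = 5.13e-06), so the size of the rise rested in part on that pool. With all pools, limma voom gave 4.70 (26.1-fold).

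The rise of Retnla came with a wide spread between graft pools. Its coefficient of variation was 111% in day 7 grafts and 26.4% in resting lung, and the highest pool exceeded the lowest by 16.4 times at day 7 and by 1.88 times at rest. Macrophages are a known source of Retnla, and the summed level of 15 monocyte and macrophage markers was also higher, 7523 ± 2980 CPM in day 7 grafts against 2509 ± 541 CPM in resting lung (SD, n = 5 each; exact two-sided permutation test, adjusted p = 0.0119 over 9 marker lists). Day 7 replicate 5, with 4345 CPM of Retnla, had the lowest monocyte and macrophage sum of the graft pools at 4875 CPM, and the highest alveolar macrophage sum at 2462 CPM and eosinophil sum at 5483 CPM. Cd9 made up most of the alveolar macrophage sum, at a mean of 1235 CPM in day 7 grafts. Replicate 3, which came next in Retnla at 1235 CPM, had a monocyte and macrophage sum of 7767 CPM, and replicate 2, with 736 CPM of Retnla, had the highest at 12216 CPM. The part of any of these cells in the rise of Retnla was not tested.

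Retnlg (ENSMUSG00000022651, chr16:48872621-48874496, plus strand), the neighbour of Retnla, was abundant in both groups. Its level was 1385, 2790, 3336, 6805 and 7127 CPM in day 7 replicates 1 to 5, against 3505, 7288, 7281, 2423 and 6281 CPM in resting replicates 1 to 5. The groups overlapped widely, with low and high pools on both sides. The mean was 4288 ± 2548 CPM in day 7 grafts and 5356 ± 2254 CPM in resting lung (SD, n = 5 each), and the log2 fold change of -0.32 ± 0.43 (SE) did not pass the test (adjusted p = 0.573, edgeR quasi-likelihood test).

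The Retnla and Retnlg coding sequences share 83.5% of aligned bases. Their whole transcripts share no stretch of 50 bases, so longer reads from one are unlikely to match the other exactly. Within a library Retnla amounted to 11.8% to 61.0% of the Retnlg count in day 7 grafts and to 0.408% to 1.16% in resting lung. The log2 ratio of Retnla to Retnlg was -1.91 ± 0.90 in day 7 grafts and -7.08 ± 0.67 in resting lung (SD, n = 5 each), a difference of 5.17 (exact two-sided permutation test, p = 0.00794, the smallest that 5 against 5 allows; adjusted p = 0.0238 over 3 ratios). The ratio needs no scaling between libraries. It shows an unequal change of the neighbours and not that Retnlg was constant.

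**Figure D2:**
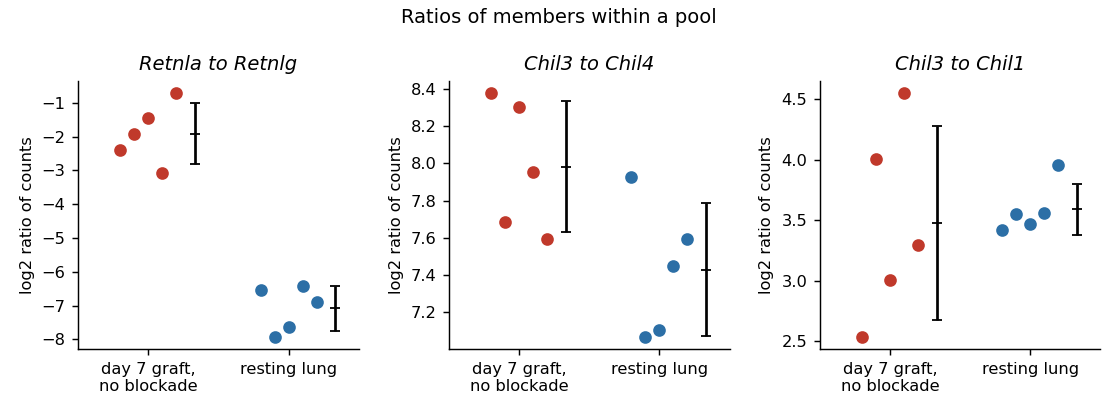
Log2 ratios of raw counts between members of the same pool (y axis), day 7 grafts without blockade on the left and resting lung on the right of each panel, with 1 point per pool and lines at the means. The ratio of Retnla to Retnlg averages -1.91 in the grafts and -7.08 at rest with no overlap, while the Chil3 ratios overlap.

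Among the chitinase-like genes, Chil3 (ENSMUSG00000040809, chr3:106147554-106167564, minus strand) was the most abundant. It was measured at 1084, 719, 823, 1119 and 390 CPM in day 7 replicates 1 to 5, against 1276, 873, 1073, 1501 and 1194 CPM in resting replicates 1 to 5. Day 7 replicate 5, the pool with most Retnla, had the least Chil3, and the groups overlapped. The mean was 827 ± 297 CPM in day 7 grafts and 1183 ± 234 CPM in resting lung (SD, n = 5 each), with a log2 fold change of -0.52 ± 0.25 (SE) that did not pass (adjusted p = 0.106, edgeR quasi-likelihood test). It was called lower with library totals alone (-0.72, adjusted p = 0.0343) and when scarce genes were kept in (-0.41, adjusted p = 0.0256), but not with DESeq2 size factors (adjusted p = 0.0931). The immature neutrophil granule genes, markers of cells known to make Chil3, were lower in the same libraries, and their part in the Chil3 values was not tested.

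Chil4 (ENSMUSG00000063779, chr3:106201490-106219507, minus strand) was much scarcer than Chil3. Its level was 3.23, 3.46, 2.59, 4.48 and 1.99 CPM in day 7 replicates 1 to 5, against 5.19, 6.46, 7.75, 8.52 and 6.15 CPM in resting replicates 1 to 5, and every graft pool was below every resting pool. The mean was 3.15 ± 0.94 CPM in day 7 grafts and 6.81 ± 1.32 CPM in resting lung (SD, n = 5 each), with a log2 fold change of -1.11 ± 0.24 (SE, adjusted p = 0.00180, edgeR quasi-likelihood test), which is 2.16-fold lower.

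Chil4 values are uncertain, because its coding sequence is identical to that of Chil3 at 1139 of 1194 aligned bases (95.4%). Over the whole transcripts, stretches of 50 bases found in both made up 17.9% of those of Chil3 and 18.5% of those of Chil4. How the authors' counting treated reads that match both is a setting that the sources used here do not state. The Chil4 count was 0.298% to 0.511% of the Chil3 count in day 7 grafts and 0.407% to 0.741% in resting lung. The log2 ratio of Chil3 to Chil4 was 7.98 ± 0.35 in day 7 grafts and 7.43 ± 0.36 in resting lung (SD, n = 5 each), a difference of 0.55 that did not pass after adjustment (exact two-sided permutation test, p = 0.0397, adjusted p = 0.0595). A change of Chil4 relative to Chil3 was therefore not established, and the share of Chil4 counts that came from Chil3 was not tested.

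Chia1 (ENSMUSG00000062778, chr3:106113229-106132120, plus strand), the active chitinase, was barely detected in the grafts. Its level was 0.79, 0.11, 0.20, 0.00 and 0.27 CPM in day 7 replicates 1 to 5, against 7.63, 5.07, 4.75, 10.1 and 6.52 CPM in resting replicates 1 to 5. The 5 graft pools held 13, 2, 5, 0 and 5 counts of Chia1, and the resting pools together held 332. All graft pools were below all resting pools. The mean was 0.27 ± 0.31 CPM in day 7 grafts and 6.82 ± 2.19 CPM in resting lung (SD, n = 5 each), with a log2 fold change of -4.61 ± 0.53 (SE, adjusted p = 9.02e-06, edgeR quasi-likelihood test), which is 24.5-fold lower. Without day 7 replicate 1 it was 41.8-fold lower.

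Chia1 is known from mouse airway and alveolar epithelium, and markers of lung structural cells were lower in the same libraries. The sum of 11 airway epithelial markers was 74.9 ± 27.8 CPM in day 7 grafts and 2508 ± 1213 CPM in resting lung (SD, n = 5 each; exact two-sided permutation test, adjusted p = 0.0119). The sum of 12 alveolar epithelial markers was 688 ± 160 CPM in day 7 grafts and 3557 ± 807 CPM in resting lung, with the same p. All 11 airway markers and 10 of 12 alveolar markers were called lower, against 23.4% of all genes tested. Their median log2 fold changes were -5.76 and -2.63, against a median of 0.05 over all genes tested. The fall was not confined to epithelial markers. The sum of 10 lung endothelial markers was 155 ± 28.7 CPM in day 7 grafts and 2287 ± 305 CPM in resting lung (adjusted p = 0.0119, exact permutation test). All 10 were called lower, with a median log2 fold change of -4.51. The part of these cells in the Chia1 and Chil4 results was not tested.

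Chil1 (ENSMUSG00000064246, chr1:134182176-134190181, plus strand) is the only member on chromosome 1. It was measured at 187, 44.6, 102, 47.7 and 39.7 CPM in day 7 replicates 1 to 5, against 119, 74.4, 96.6, 127 and 77.0 CPM in resting replicates 1 to 5. The grafts held both the highest pool, replicate 1, and the 3 lowest. The mean was 84.4 ± 62.9 CPM in day 7 grafts and 98.8 ± 23.9 CPM in resting lung (SD, n = 5 each), with a log2 fold change of -0.23 ± 0.39 (SE, adjusted p = 0.668, edgeR quasi-likelihood test). Without day 7 replicate 1, the pool with most mature neutrophil markers (12357 CPM summed), the log2 fold change was -0.74 and passed (adjusted p = 0.0458). The log2 ratio of Chil3 to Chil1 was 3.48 ± 0.80 in day 7 grafts and 3.59 ± 0.21 in resting lung (SD, n = 5 each; exact two-sided permutation test, p = 0.770).

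Per length of transcript, the order of the members changed in the grafts. In RPKM, the CPM divided by the length of the gene's exons in kilobases, the means in day 7 grafts ran Retnlg 7232, Retnla 2466, Chil3 507, Chil1 30.1, Chil4 1.12 and Chia1 0.14. In resting lung they ran Retnlg 9031, Chil3 725, Retnla 61.9, Chil1 35.2, Chia1 3.59 and Chil4 2.42. Retnla thus stood above Chil3 in the grafts and below it at rest. Its ranges overlapped with those of both neighbours in the grafts, at 441 to 7254 RPKM against 2335 to 12019 RPKM for Retnlg and 239 to 686 RPKM for Chil3. At rest Retnla, at 47.0 to 88.2 RPKM, lay clear of Chil3 at 535 to 920 RPKM and of Chil1 at 26.5 to 45.3 RPKM. Chia1 and Chil4 overlapped at rest, with medians of 3.43 RPKM for Chia1 and 2.29 RPKM for Chil4.

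Between pools of one group, Retnla, Retnlg, Chil1 and Chia1 were correlated with marker levels before adjustment for the number of relations. None of these relations passed after it. With each group's mean removed, the log2 level of Retnlg had a Pearson correlation of 0.92 with the eosinophil marker sum and of -0.88 with the mature neutrophil sum over the 10 pools. Chil1 had 0.91 for the mature neutrophil sum and 0.82 for the sum of immature neutrophil granule genes. Spearman's rho was 0.90, -0.70, 0.70 and 0.85 in that order of the 4 pairs. Without the 2 pools farthest from the median marker level, r was 0.94, -0.78, 0.79 and 0.72. Exact permutations within groups gave p = 0.00167, 0.00306, 0.00465 and 0.00188, and each adjusted p was 0.0502 over 54 relations, so none of the 54 passed. These 4 relations were chosen after the data were seen, and all values of a pool share its library and scaling. By rank, Chil1 was closer to the alveolar epithelial sum (rho 0.90, r = 0.69, adjusted p = 0.234, exact permutation) than to the mature neutrophil sum. With the eosinophil sum Chil1 had r = -0.64 (rho -0.65, adjusted p = 0.275, exact permutation).

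Retnla had r = 0.65 with the eosinophil sum (rho 0.40, adjusted p = 0.238, exact permutation), 0.69 with the alveolar macrophage sum (rho 0.75, adjusted p = 0.275, exact permutation) and -0.44 with the monocyte and macrophage sum (rho -0.30, adjusted p = 0.673, exact permutation), and none of these passed. Retnlg also had r = 0.87 with the alveolar macrophage markers, but 0.29 once Cd9, the most abundant of them, was left out. The value for Retnla with the alveolar macrophage sum includes Cd9 too. Chia1 had r = 0.76 with the mature neutrophil sum (adjusted p = 0.180, exact permutation) and 0.68 with the immature neutrophil granule genes (adjusted p = 0.234). Without the 2 pools farthest from the median marker level, these Chia1 values were 0.37 and 0.22.

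**Figure D3:**
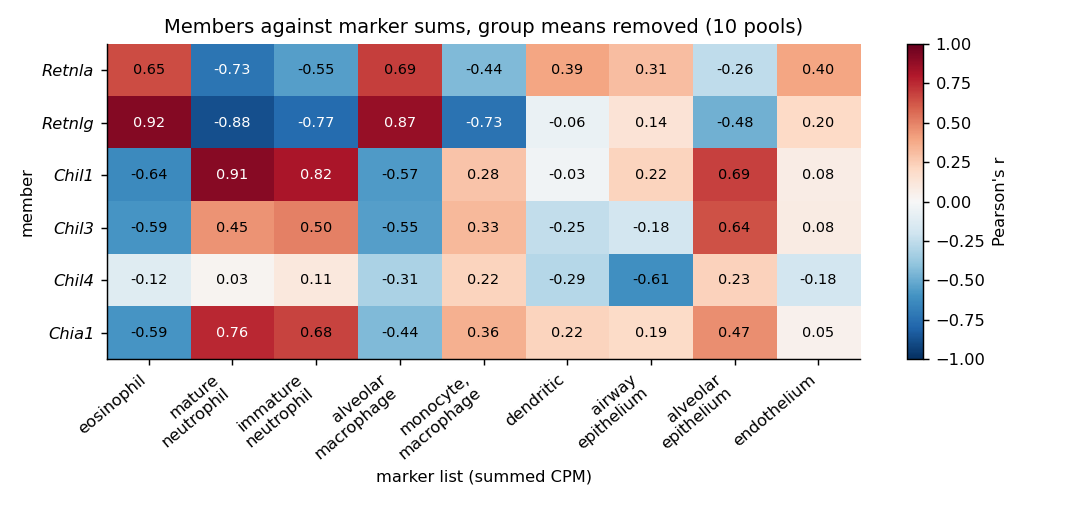
Pearson's r (colour) between the log2 level of each member (rows) and the log2 summed level of 9 marker lists (columns) over 10 pools with group means removed. Retnlg is positive with eosinophil markers (0.92) and negative with mature neutrophil markers (-0.88), and Chil1 is positive with mature neutrophil markers (0.91), while 0 of 54 relations pass after adjustment.

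**Figure D4:**
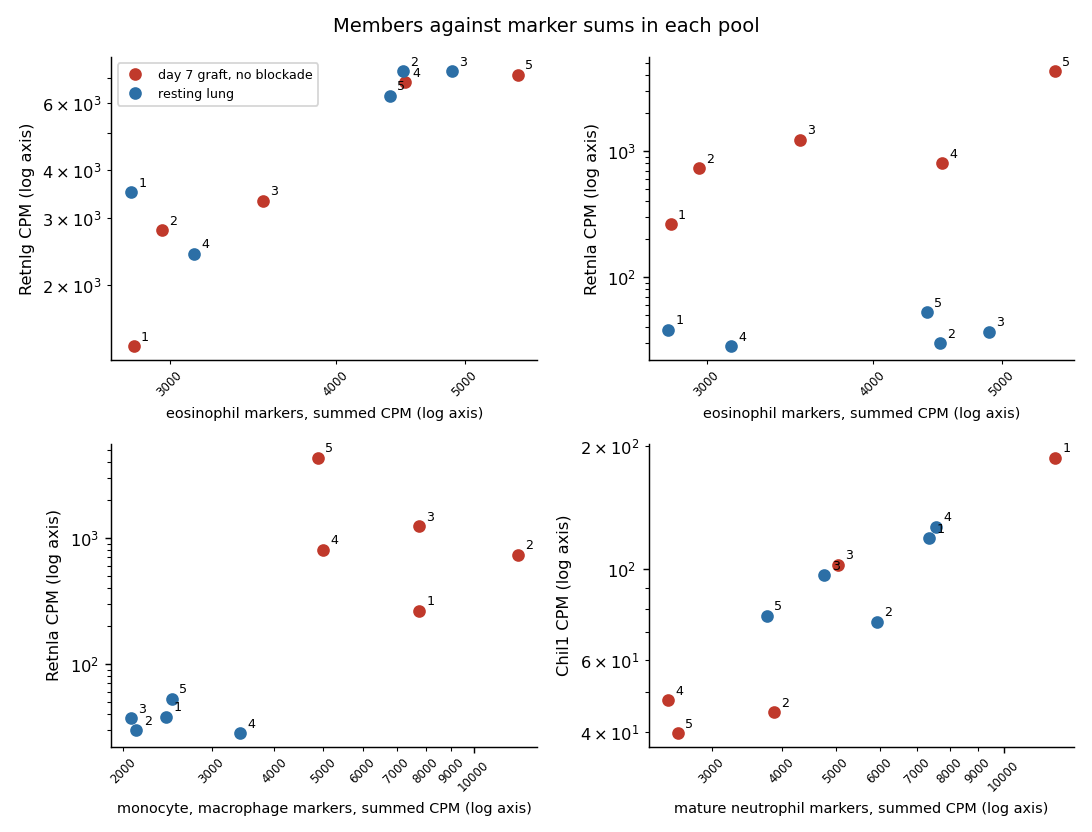
Members (y axes, CPM, log scale) against summed marker levels (x axes, CPM, log scale), with 1 point per pool coloured by group. The pools of both groups lie along one rising trend for Retnlg and eosinophil markers, and day 7 replicate 5, at 4345 CPM of Retnla, has the highest eosinophil sum of its group.

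Of 8 further resistin and glycosyl hydrolase family genes 6 could be tested. Of these 6, 2 were called higher, against 23.3% of all genes tested, none lower, against 23.4%, and 4 did not pass. Their median log2 fold change was 0.44 against 0.05 over all genes. Ctbs, the lysosomal chitobiase, averaged 35.5 ± 10.6 CPM in day 7 grafts and 21.9 ± 3.14 CPM in resting lung (SD, n = 5 each; log2 fold change 0.69, adjusted p = 0.00859, edgeR quasi-likelihood test). Chid1, a chitinase-domain protein, was higher by 0.56 on the log2 scale (adjusted p = 0.0282), a call that did not pass with library totals alone (0.36, adjusted p = 0.141). Retn, which encodes resistin, was at 2.31 ± 0.47 CPM in day 7 grafts and 3.43 ± 0.98 CPM in resting lung (adjusted p = 0.0850). Retnlb, which encodes another resistin-like molecule, was at 1.13 ± 0.64 CPM in day 7 grafts and 0.62 ± 0.25 CPM in resting lung (adjusted p = 0.149). Chil5 and Ovgp1 did not pass either, although Retn and Ovgp1 were called lower with library totals alone (adjusted p = 0.0282 for Retn and 0.0296 for Ovgp1). Among the rest, Chil6 and Chit1, which encodes the macrophage chitotriosidase, were below the filter.

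Of 9 genes for reported binding partners of these proteins 8 could be tested, and 3 were called higher, 1 lower and 4 neither, with a median log2 fold change of 0.25. Over all genes tested 23.3% were called higher and 23.4% lower. Tlr4, reported to bind resistin, averaged 117 ± 66.2 CPM in day 7 grafts and 29.3 ± 7.88 CPM in resting lung (log2 fold change 1.99, adjusted p = 3.14e-04, edgeR quasi-likelihood test). Lgals3, which encodes galectin-3, a reported partner of Chil1, averaged 1130 ± 241 CPM in day 7 grafts and 561 ± 55.6 CPM in resting lung (log2 fold change 1.01, adjusted p = 9.39e-05). Tmem219, a reported co-receptor for Chil1, had a log2 fold change of 0.72 (adjusted p = 0.00134). Ager, which is also a marker of alveolar type I cells, averaged 6.47 ± 2.94 CPM in day 7 grafts and 282 ± 75.1 CPM in resting lung (log2 fold change -5.44, adjusted p = 1.66e-07). Cap1, Btk, Cd44 and Ptgdr2 did not pass (Cd44 was called lower with library totals alone, adjusted p = 0.00773), and Il13ra2, a reported Chil1 receptor, was below the filter.

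The interleukin-4 and STAT6 pathway, which drives Retnla in macrophages, changed in parts. The 18 genes examined were genes of interleukin-4 and interleukin-13 signalling and transcription factors tied to the members, and not all are parts of that pathway. Of these 18, 8 were called higher, against 23.3% of all genes tested, 4 lower, against 23.4%, and 6 neither. Their median log2 fold change was 0.66 against 0.05 over all genes. The receptor chain Il2rg (log2 fold change 1.16, adjusted p = 2.79e-06, edgeR quasi-likelihood test) and the kinases Jak3 (1.03, adjusted p = 8.98e-04) and Tyk2 (0.56, adjusted p = 0.00264) were higher without overlap. The cytokine and the factor did not pass: Il4 averaged 156 ± 80.3 CPM in day 7 grafts and 99.5 ± 33.4 CPM in resting lung (adjusted p = 0.149), and Stat6 averaged 426 ± 41.1 CPM in day 7 grafts and 485 ± 70.6 CPM in resting lung (adjusted p = 0.257). Il13, Il4ra, Il13ra1 and Jak1 did not pass either, while Stat6 and Jak1 were called lower with library totals alone (adjusted p = 0.0253 for Stat6 and 0.0274 for Jak1, edgeR quasi-likelihood test).

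Socs1, a feedback inhibitor of cytokine signalling that interferons also induce, averaged 134 ± 26.2 CPM in day 7 grafts and 9.49 ± 2.33 CPM in resting lung (log2 fold change 3.83, adjusted p = 5.72e-09, edgeR quasi-likelihood test). Cebpb, which encodes a C/EBP factor, had a log2 fold change of 1.76 (adjusted p = 0.00374), and Irf4, a transcription factor of alternative activation, one of 1.36 (adjusted p = 1.51e-05). Klf4 fell to 26.7 ± 8.86 CPM in day 7 grafts, against 65.5 ± 12.3 CPM in resting lung (log2 fold change -1.29, adjusted p = 2.35e-04). Spi1, which encodes PU.1, was also lower (log2 fold change -0.66, adjusted p = 0.00175). So were Il33 (-1.53, adjusted p = 0.0180) and Pparg (-0.94, adjusted p = 0.00157), while Cebpa (1.09, adjusted p = 0.0104) and Hif1a (1.11, adjusted p = 9.22e-05) were higher.

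Among 18 matched genes of alternative activation other than the members, 12 were called higher, 2 lower and 4 neither, with a median log2 fold change of 1.20. Over all genes tested 23.3% were called higher and 23.4% lower. Scaled by library totals only, 10 of the 18 passed as higher and 3 as lower. Arg1, which encodes arginase 1 and is often measured beside Retnla and Chil3, averaged 278 ± 175 CPM in day 7 grafts and 2.28 ± 1.07 CPM in resting lung (log2 fold change 6.95, adjusted p = 1.67e-07, edgeR quasi-likelihood test). Msr1, a scavenger receptor, had a log2 fold change of 3.00, Ccl24, which encodes eotaxin-2, one of 2.28, and Pdcd1lg2, which encodes PD-L2, one of 2.22. Mgl2, a macrophage lectin, fell to 2.84 ± 1.37 CPM in day 7 grafts, against 11.6 ± 1.34 CPM in resting lung (log2 fold change -2.04, adjusted p = 1.02e-04), and Ccl17 had a log2 fold change of -1.80. Retnla and Arg1 were thus higher while Chil3, another gene of that program, was not. Monocyte and macrophage markers moved with these genes: 12 of 15 were called higher (10 with library totals alone, where 1 was lower), led by C1qb at 339 to 1415 CPM in day 7 grafts and 14.7 to 42.2 CPM in resting lung. The part of these cells in the changes of the pathway genes was not tested.

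**Figure D5:**
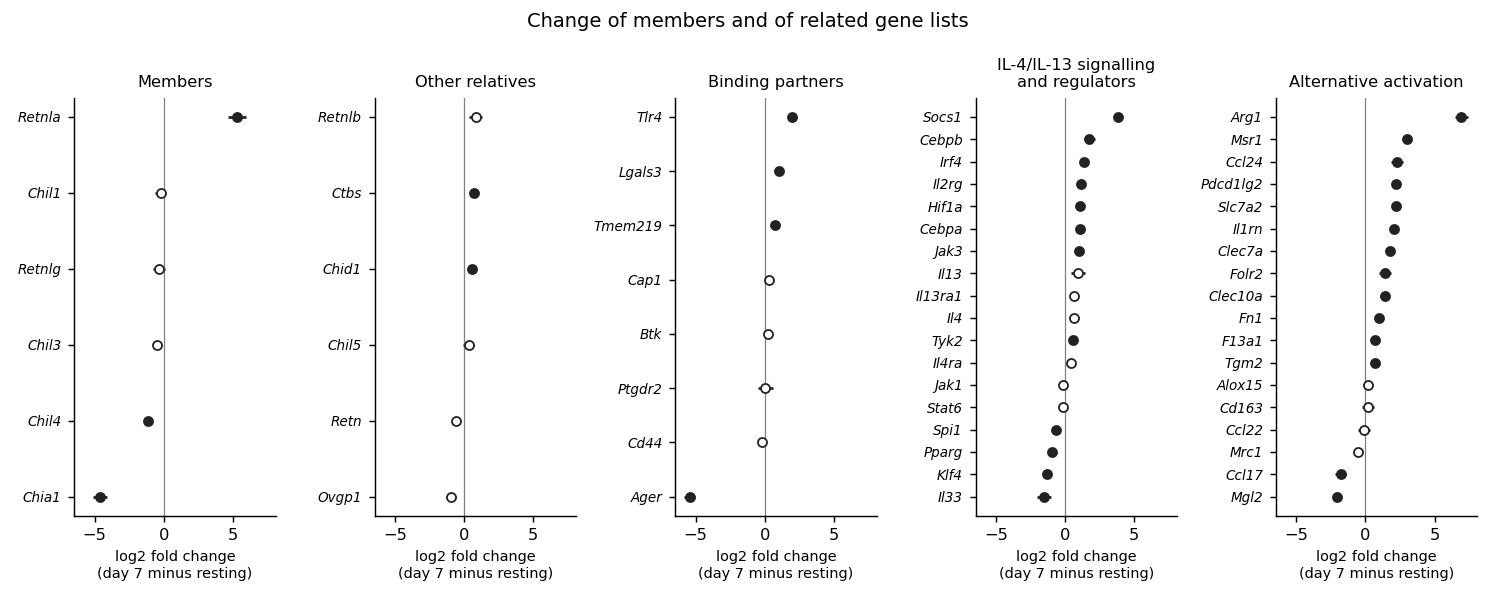
Log2 fold change, day 7 grafts without blockade minus resting lung (x axis), of the members and of genes in 4 related lists (rows), with bars of 1 standard error and filled points for genes with an adjusted p below 0.05. Retnla at 5.31 and Arg1 at 6.95 lie on the right, and Chia1 at -4.61 and Ager at -5.44 on the left.

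The genes most like each changed member over the 10 pools were found by the mean absolute difference of centred log2 profiles among 15397 genes with a mean of at least 1 CPM. For Retnla these were Xcl1 (0.50), Ifng (0.65), Tnfsf4 (0.69), Rgs16 (0.70) and Tmem171 (0.75). Xcl1, a chemokine of lymphocytes, averaged 39.8 ± 46.2 CPM in day 7 grafts and 1.07 ± 0.31 CPM in resting lung, and Ifng, which encodes interferon gamma, 27.5 ± 27.3 CPM in day 7 grafts and 0.68 ± 0.56 CPM in resting lung (SD, n = 5 each). For Chil4 they were Bcl9l (0.09), Wdr35 (0.15), Rasd1 (0.17), Cep85l (0.17) and Afg1l (0.17). For Chia1 they were Tmeff2 (0.31), Rapgef3 (0.33), Slc18b1 (0.34), Ica1 (0.37) and Phactr1 (0.37).

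Of the members that did not pass, and named after their values were seen, Retnlg was most like P2rx1 (0.13) and Rflnb (0.15). Chil1 was most like Lcn2 (0.19), followed by Ifnlr1 (0.27), P2ry1 (0.27), S100a9 (0.27) and Olfml2b (0.28). Lcn2 encodes a neutrophil granule protein, and S100a9 encodes a calcium-binding protein abundant in neutrophils. Both also stand in the neutrophil marker lists used above.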

How the data were processed

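Eosinophil RNA from 10 pooled libraries, 5 of day 7 grafts without blockade and 5 of resting lung, was analysed. The authors deposited raw counts per gene. The submitters' processing notes list STAR 2.5.2b, Subread 1.5.2 with featureCounts, Trimmomatic 0.36 and bcl2fastq 2.17, and the build mm10. The sources used here do not give the annotation, the strand setting or the handling of reads that match several genes. A further 10 count columns match no label and were not used. Symbols and coordinates came from GENCODE on mm10, and 48970 of 49315 identifiers had a symbol. Both tables were joined by identifier.

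The members and gene lists were chosen with earlier results of these data known. Genes were filtered by group, which left 16500 and removed 32815, and tested in R 4.3.3 with edgeR 4.0.16 (quasi-likelihood F test, robust, TMM scaling, group as the only term). Benjamini-Hochberg adjustment was used at a threshold of 0.05. The standard error of a log2 fold change is its size over the square root of its F value. The test was tried first on simulated data. Single values were compared by exact two-sided permutation in scipy 1.17.1. Ratios used raw counts plus 0.5, and relations used log2(CPM + 0.5). RPKM used the union of a gene's exons. Alternatives included DESeq2 1.42.0 and voom from limma 3.58.1.

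Named genes were the members, up to 4 genes a list (adjusted p below 0.05, at least 5 CPM in the higher group, no overlap, by size), genes needed to say which list members did not pass, and the 5 closest profiles of each member past the test. Chid1, Spi1, Il33, Pparg, Cebpa, Hif1a, Ccl17, Il2rg, Jak3, Tyk2 and some eosinophil markers are not given by that rule. They and Cd9 were named after their values were seen. A floor of 3 counts was 0.112 to 0.191 CPM in day 7 libraries and 0.233 to 0.450 CPM in resting libraries, covering counting error alone. All pairs of pools of the same group differed by more than sampling noise (chi-square per degree of freedom 6.57 or more). The pools are separate samples per the labels, but which animals or days they share is not given, so p-values measure the spread between these pools.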

Additional observations from a re-analysis of the deposited data

Results flagged for a closer look

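In 36 groups of 5 values examined (members, ratios and marker sums), 4 had a pool far from the other 4. For independent, normally distributed values chance alone gives such a gap in about 1 group in 20. CPM values need not follow that distribution and the groups share pools, so the rate to be expected here is not known. Retnla in day 7 replicate 5 was at 4345 CPM, above the other graft pools. The log2 ratio of Chil3 to Chil1 in resting replicate 5 was 3.95, above the other resting pools. The summed level of mature neutrophil markers in day 7 replicate 1 was 12357 CPM, above the other graft pools. The summed level of dendritic cell markers in day 7 replicate 5 was 321 CPM, also above the other graft pools.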

How the results depend on the processing

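Retnla kept its direction and its call in all 17 alternatives, with log2 fold changes of 4.36 to 5.59, as did Chil4 (-1.31 to -0.98) and Chia1 (-5.38 to -4.33). Leaving out 1 pool at a time gave 1 member higher each time, 2 to 3 members lower, 3507 to 3976 genes higher and 3669 to 4020 genes lower. With library totals alone 2495 genes were higher, 33.8% of the calls against 49.9% with TMM, and the median of all genes shifted by -0.19. Without a filter on low counts 6715 genes were lower. The difference in the Chil3 to Chil4 ratio was 0.46 to 0.68 when 1 pool was left out, and it passed without day 7 replicate 2, day 7 replicate 5 or resting replicate 1. That in the Chil3 to Chil1 ratio was -0.38 to 0.12, turning without day 7 replicate 1 or 3. With 1 pool left out, the difference in marker sums that did not pass was -489 to 178 CPM for eosinophils (-533 CPM with library totals alone) and -2361 to 102 CPM for mature neutrophils. The dendritic cell sum did pass, at 270 ± 29.1 CPM in day 7 grafts and 210 ± 32.4 CPM in resting lung (SD, adjusted p = 0.0119, exact permutation). Its difference of 59.8 CPM was 47.0 to 69.1 CPM with 1 pool left out and passed each time. The dendritic difference did not pass with library totals alone, at 28.3 CPM (adjusted p = 0.327, exact permutation), and was -9.71 CPM without the most abundant marker. The correlation of Retnlg with eosinophil markers passed without resting replicate 1 (0.94) or 4 (0.92), that with alveolar macrophage markers without day 7 replicate 1 (0.91), and that of Chil1 with granule genes without resting replicate 2 (0.82). The cause of these shifts was not tested. With the replicate number as a block 3317 genes were higher and 3636 lower, and the same count of members was called (1 higher, 2 lower). Deviations of same-numbered pools correlated at -0.19 to 0.12 and 0 of 10 pools were closest to their own number. No pairing by number was thus seen, but these values cannot show whether pools share animals or days. Counts of Chia1 were few in the grafts, with 0 in 1 pool, so the size of its fold change is uncertain. The graft libraries were deeper than the resting ones.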
